A study of Mus musculus with 6 samples.

Results

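The genes described here are 39 markers of macrophages and other leukocytes, measured in the caudal artery, the main artery of the mouse tail. They were taken as a list of gene symbols, and for each gene the brightest probe set, by mean over the 6 arrays, was taken among those annotated with that symbol alone. Of the 39 genes, 38 had such a probe set and are represented by 66 probe sets, out of 18193 genes in all, and Lck was not analysed here. A gene was tested when its probe set reached the level filter, a mean of 3.83 or more on the log2 scale, and this kept 32 of the 38 genes and 48 of their 66 probe sets.

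The arteries came from Notch3-/- mice, which lack the Notch3 receptor of arterial smooth muscle, and from Notch3+/+ mice, all 4 weeks old (postnatal day 28). Each genotype had 3 RNA pools, each hybridised to an array of its own, and the labels call the pools biological replicates. Every Notch3-/- pool and Notch3+/+ pool 1 held arteries of 4 mice, whereas Notch3+/+ pools 2 and 3 held those of 3 mice. How the allele was targeted, the strain and the sex of the mice are not given in the labels used here. The deposited values are log2 expression values made with RMA (background correction, quantile normalization and probe set summary), and changes are given as Notch3-/- minus Notch3+/+ in log2 units. Notch3 itself read 6.51, 6.44 and 5.87 in Notch3-/- pools 1 to 3, against 9.94, 9.95 and 10.09 in the Notch3+/+ pools. Notch3-/- pool 2 stood apart on the first principal component over all tested probe sets, at 39.5, against -1.02 and 5.85 in the other Notch3-/- pools and -17.1 to -13.1 in the Notch3+/+ pools.

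Macrophages are resident in the outer coat of healthy arteries, the adventitia, where they clear debris, take up haemoglobin complexes and collagen fragments through scavenger receptors, and depend on signals through the receptor Csf1r. They carry the transcription factor PU.1, encoded by Spi1, and they are a main source of C1q, the recognition molecule that starts the classical complement pathway. T cells, B cells and neutrophils are usually few in a young, uninflamed artery and can also enter a dissected sample with blood. In RNA from whole arteries, more cells of a type and more RNA per cell cannot be told apart.

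Most macrophage and pan-leukocyte genes read higher on average in Notch3-/- arteries, but 0 of the 32 genes passed the threshold (adjusted p under 0.05 over 27027 probe sets, limma) by their brightest probe set. The background over all 12732 genes tested was 0.322% called, and 0.196% called higher. Of the 32 genes, 28 had a change above 0, with a median of 0.39, against a median of -0.0033 over all genes tested, of which 48.6% had a change above 0. An unadjusted p under 0.05 with a higher level in Notch3-/- arteries was found for 10 of the 32 genes (background 7.1%), and for 0 in the other direction (background 4.81%). The smallest adjusted p among them was 0.264. The genotypes did not overlap, with every Notch3-/- pool above every Notch3+/+ pool, in 8 of the 32 genes (background 9.46%). In the other direction the count was 0 (background 7.88%). The 8 genes were Cd14, Csf1r, Cd163, Ctss, Cybb, Mpeg1, Fcgr3 and Laptm5. A change of 0.25 or more was found for 23 of the 32 genes (background 8.4%). Counted over the 48 tested probe sets of the members, 14 had an unadjusted p under 0.05 (background 6.5%) and 13 did not overlap (background 8.43%), all of them higher in Notch3-/- arteries. Both genotype means lay at or above the filter level in all 32 genes, and the median over all 38 genes without the filter was 0.33.

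**Figure D1:**
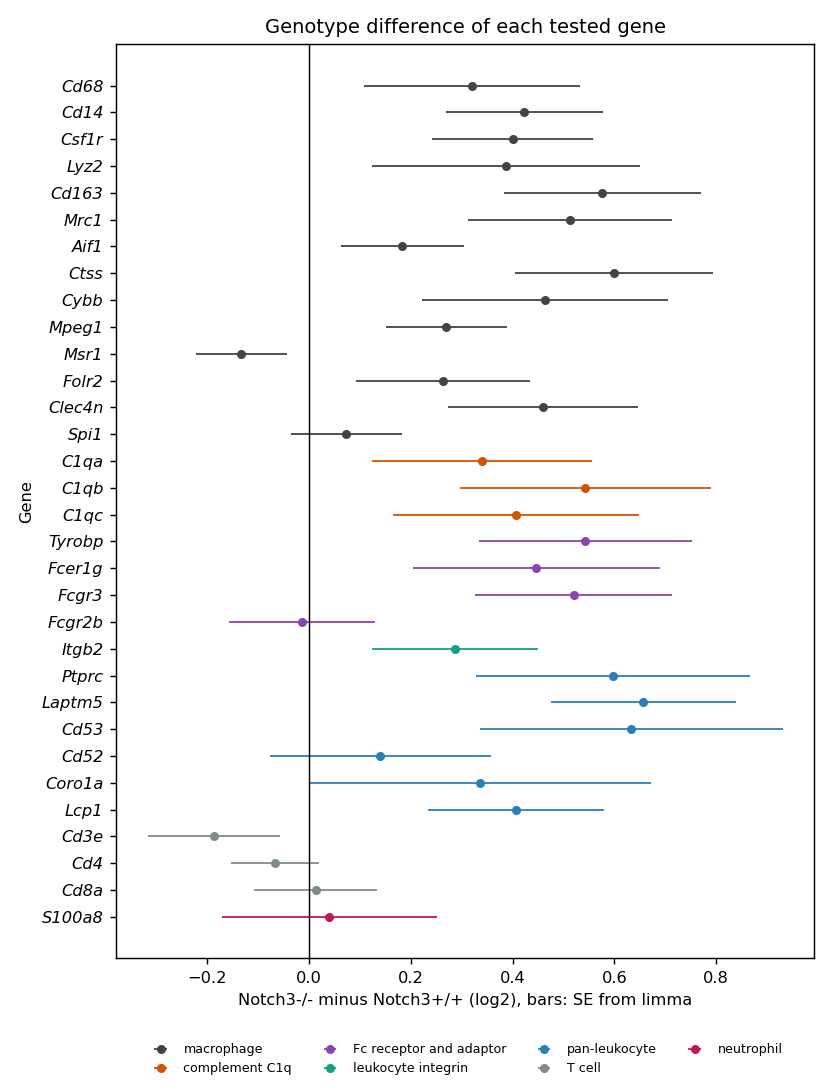
Change of each of the 32 tested genes (x axis, Notch3-/- minus Notch3+/+, log2 units, point and SE from limma), 1 gene per line and coloured by cell class. The macrophage, C1q, Fc receptor and pan-leukocyte genes lie mostly right of 0, with Msr1 and Fcgr2b at or left of 0, and the T cell genes lie at or left of 0.

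Among the 14 macrophage genes, 13 had a change above 0, with a median of 0.39, and the largest changes were those of a lysosomal protease and a scavenger receptor gene. Ctss, which encodes the lysosomal protease cathepsin S, read 8.75, 8.53 and 8.67 in the Notch3-/- pools, against 8.38, 8.19 and 7.58 in the Notch3+/+ pools. The genotypes did not overlap, and Notch3+/+ pool 3 was lowest by a wide margin. The change was 0.60 (SE 0.19, 1.52-fold), with an unadjusted p of 0.0163 and an adjusted p of 0.337 from limma. Cd163, the scavenger receptor for haemoglobin and haptoglobin, read 7.08, 6.87 and 6.94 in the Notch3-/- pools, against 6.76, 6.46 and 5.94 in the Notch3+/+ pools. Its change was 0.58 (SE 0.19, adjusted p = 0.349 from limma), again with no overlap and with Notch3+/+ pool 3 lowest. Mrc1, the mannose receptor CD206 of tissue-resident macrophages, read 8.36, 7.88 and 8.01 in the Notch3-/- pools, against 7.88, 7.67 and 7.16 in the Notch3+/+ pools. Here Notch3-/- pool 2 equalled Notch3+/+ pool 1, and the change was 0.51 (SE 0.20, adjusted p = 0.405 from limma).

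Csf1r, the receptor for the macrophage growth factors CSF1 and IL-34, read 10.08, 9.83 and 9.95 in the Notch3-/- pools, against 9.75, 9.72 and 9.19 in the Notch3+/+ pools. Its 3 probe sets differed by 0.29 to 0.40, with adjusted p of 0.411 or more from limma, and the genotypes were apart on the brightest alone. Of its ligand genes, Csf1 differed by 0.06 (adjusted p = 0.831 from limma), and Il34 lay below the level filter. Cd14, the co-receptor for bacterial lipopolysaccharide, read 6.42, 6.22 and 6.35 in the Notch3-/- pools, against 6.21, 5.92 and 5.59 in the Notch3+/+ pools. Its change was 0.42 (SE 0.15, adjusted p = 0.377 from limma), and Notch3-/- pool 2 lay only just above Notch3+/+ pool 1.

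Clec4n, the C-type lectin receptor dectin-2, had 2 probe sets, which differed by 0.46 and 0.74. The brighter read 5.83, 5.23 and 5.47 in the Notch3-/- pools, against 5.24, 5.18 and 4.73 in the Notch3+/+ pools. On it Notch3-/- pool 2 lay just below Notch3+/+ pool 1 (adjusted p = 0.417 from limma). The dimmer read 5.15, 4.76 and 4.93 in the Notch3-/- pools, against 4.61, 4.23 and 3.77 in the Notch3+/+ pools, without overlap (adjusted p = 0.266 from limma). Cybb, the membrane subunit of the phagocyte NADPH oxidase, read 5.78, 5.41 and 5.44 in the Notch3-/- pools, against 5.35, 5.40 and 4.49 in the Notch3+/+ pools. Its change was 0.46 on both tested probe sets, and on the brighter one only Notch3-/- pool 1, above, and Notch3+/+ pool 3, below, stood away from the rest. Msr1, the class A scavenger receptor, was the exception among macrophage genes. Its tested probe sets disagreed in sign, at -0.13, 0.26 and -0.05, each with an adjusted p of 0.509 or more from limma. The one with the positive sign read 5.0, 4.50 and 4.65 in the Notch3-/- pools, against 4.48, 4.48 and 4.42 in the Notch3+/+ pools.

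The remaining macrophage genes, described to complete the class, differed by 0.07 to 0.39. Lyz2, the lysozyme of macrophages and neutrophils, differed by 0.39, the lysosomal glycoprotein gene Cd68 by 0.32 and the perforin-like gene Mpeg1 by 0.27. Folr2, a folate receptor of tissue-resident macrophages, differed by 0.26, the actin-binding protein gene Aif1 (IBA1) by 0.18 and Spi1 by 0.07. Spi1, at 5.23, 5.13 and 5.13 in the Notch3-/- pools and 5.20, 5.20 and 4.87 in the Notch3+/+ pools, had a spread within Notch3+/+ larger than its change. The genotypes overlapped in each of these 6 genes other than Mpeg1, and all had adjusted p of 0.458 or more from limma.

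Promoter windows are shown for the C1q genes held in the RefSeq table, and for Ctss and Laptm5, which had the largest changes of the macrophage and pan-leukocyte classes. Each runs from 250 bases before to 50 bases after the annotated start (RefSeq, GRCm38.p6), is written 5′ to 3′ on the gene's strand, and has each GAGGAA, the purine-rich box known from PU.1 sites, in capitals, written TTCCTC where it lies on the other strand.
C1qb (chr4:136886151-136886450, minus strand): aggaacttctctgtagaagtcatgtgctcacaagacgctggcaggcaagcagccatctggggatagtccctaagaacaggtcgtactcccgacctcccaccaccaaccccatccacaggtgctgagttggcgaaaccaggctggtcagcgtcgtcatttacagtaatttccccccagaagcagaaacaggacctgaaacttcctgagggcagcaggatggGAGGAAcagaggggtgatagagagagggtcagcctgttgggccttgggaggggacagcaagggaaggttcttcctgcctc
C1qc (chr4:136892865-136893164, minus strand): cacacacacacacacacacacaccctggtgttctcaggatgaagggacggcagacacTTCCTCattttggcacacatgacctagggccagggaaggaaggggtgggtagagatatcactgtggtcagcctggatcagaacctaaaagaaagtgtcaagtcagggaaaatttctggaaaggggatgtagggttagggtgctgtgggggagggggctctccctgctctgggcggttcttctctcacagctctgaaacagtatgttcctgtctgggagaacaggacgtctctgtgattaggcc
Ctss (chr3:95526536-95526835, plus strand): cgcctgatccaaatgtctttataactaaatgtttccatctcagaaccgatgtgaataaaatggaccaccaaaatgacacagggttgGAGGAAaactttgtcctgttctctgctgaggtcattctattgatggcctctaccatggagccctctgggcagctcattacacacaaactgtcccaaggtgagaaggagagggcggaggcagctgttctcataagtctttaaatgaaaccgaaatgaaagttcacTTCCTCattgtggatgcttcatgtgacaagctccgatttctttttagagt
Laptm5 (chr4:130913066-130913365, plus strand): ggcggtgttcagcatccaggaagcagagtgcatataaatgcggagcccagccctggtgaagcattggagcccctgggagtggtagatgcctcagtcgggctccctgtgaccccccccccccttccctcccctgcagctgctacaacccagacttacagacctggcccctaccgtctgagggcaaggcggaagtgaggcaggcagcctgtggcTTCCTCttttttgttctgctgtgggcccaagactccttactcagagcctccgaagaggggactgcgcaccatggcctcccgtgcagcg
The box was searched on both strands and was found in 17 of the 32 windows held for 27 of the member genes (53.1%), against 28.3% of 32851 windows of that length over all genes. Some of these windows belong to 1 gene and overlap each other, as both Fcgr3 windows do. Among windows of the macrophage, C1q, Fc receptor, integrin and pan-leukocyte members, 13 of 26 held the box. It was absent from those of Cd163, Lyz2, Mpeg1, Folr2 and Fcer1g, among others. Of the lymphocyte and neutrophil members, Cd3e, Cd8a, Cd79a and S100a8 had it, and Cd3g and S100a9 did not. The box was therefore not confined to macrophage genes. The longer form GAGGAAGT, which contains the box, was in 4 member windows (12.5%), those of C1qc, Ctss, Cd53 and S100a8, against 3.2% of all windows. A match describes these letters and shows neither binding nor a cause.

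The 3 C1q chain genes varied together across pools, and 1 probe set of C1qb was the only member probe set called. C1qa, C1qb and C1qc encode the A, B and C chains that assemble into C1q, and they lie side by side on chromosome 4 with 0 protein-coding genes between neighbours in the RefSeq table. C1qa read 8.22, 7.69 and 8.15 in the Notch3-/- pools, against 8.0, 7.80 and 7.24 in the Notch3+/+ pools. C1qb, on its brightest probe set, read 8.63, 7.93 and 8.44 in the Notch3-/- pools, against 8.10, 7.97 and 7.30 in the Notch3+/+ pools. C1qc read 7.70, 6.97 and 7.50 in the Notch3-/- pools, against 7.28, 7.14 and 6.53 in the Notch3+/+ pools. In all 3 genes the order of the pools was the same at its ends, with Notch3-/- pool 1 highest and Notch3+/+ pool 3 lowest, and Notch3-/- pool 2 lay below Notch3+/+ pools 1 and 2. Their changes were 0.34 (SE 0.22), 0.54 (SE 0.25) and 0.41 (SE 0.24), with adjusted p of 0.586, 0.470 and 0.562 from limma.

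The other C1qb probe sets gave another picture of Notch3-/- pool 2. Probe set 1437726_x_at read 8.16, 8.44 and 8.34 in the Notch3-/- pools, against 7.36, 7.36 and 7.01 in the Notch3+/+ pools. It rose by 1.07 (SE 0.12, 2.10-fold, adjusted p = 0.0227 from limma). Over all probe sets tested the background was 0.252% called and 0.137% called higher. The call held without Notch3-/- pool 1 (adjusted p = 0.0472 from limma). It was lost without Notch3-/- pool 2 or 3 or Notch3+/+ pool 1, 2 or 3, with adjusted p of 0.0970, 0.169, 0.0678, 0.132 and 0.0936, and also among pools of 4 mice. The change of 1437726_x_at ran from 0.95 to 1.15 with 1 array left out, and was 0.95 among pools of 4 mice. Probe set 1434366_x_at read 7.62, 7.88 and 7.96 in the Notch3-/- pools, against 7.38, 7.27 and 6.66 in the Notch3+/+ pools, a change of 0.72 (SE 0.19, adjusted p = 0.251 from limma). Relative to the brightest probe set, 1437726_x_at stood at -0.47, 0.51 and -0.10 in the Notch3-/- pools, against -0.74, -0.61 and -0.29 in the Notch3+/+ pools, so it stood above the brightest probe set in Notch3-/- pool 2 alone.

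Laptm5, a lysosomal membrane protein gene of blood cells, split in the same way. Its brightest probe set, 1436905_x_at, read 7.81, 7.89 and 7.85 in the Notch3-/- pools, against 7.56, 7.25 and 6.77 in the Notch3+/+ pools, a change of 0.66 (SE 0.18, adjusted p = 0.264 from limma). Its next probe set, 1426025_s_at, read 7.15, 6.37 and 6.82 in the Notch3-/- pools, against 6.88, 6.80 and 6.39 in the Notch3+/+ pools, a change of 0.09. The other tested Laptm5 probe sets differed by 0.05 and -0.05. The probe sets named _x_at, in which some probes can match other transcripts, had a median deviation of 0.08 in Notch3-/- pool 2 over all 1636 tested, against -0.01 for the 20179 named _at. The difference between the 3′ and 5′ control probe sets of Actb was also largest in Notch3-/- pool 2, at 0.58, against 0.39 and 0.42 in the other Notch3-/- pools and 0.35 to 0.41 in the Notch3+/+ pools, while that of Gapdh was not, at -0.11 in a range of -0.19 to -0.05. The part of these in the disagreement between probe sets was not tested.

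**Figure D2:**
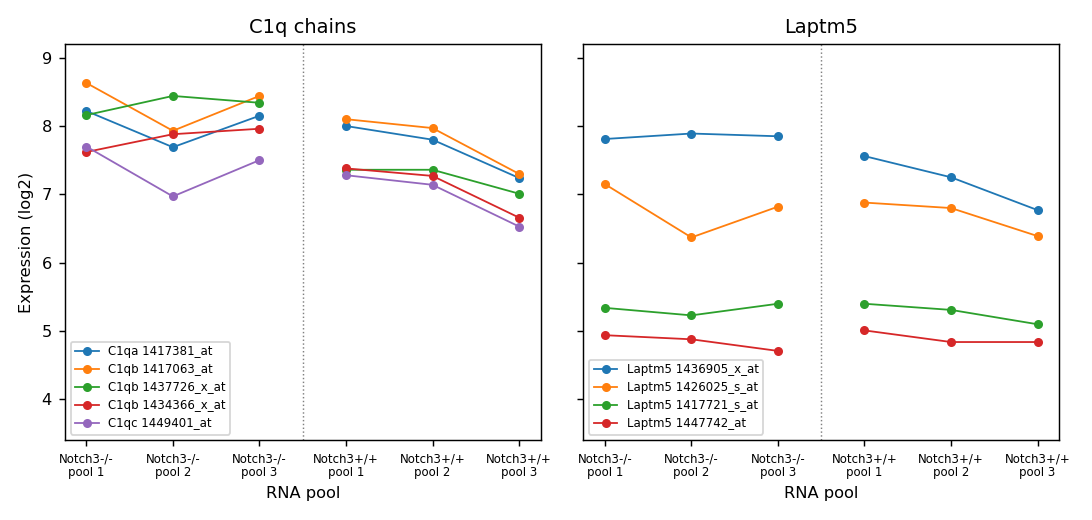
Log2 expression (y axis) of each tested probe set of the C1q chains (left) and of Laptm5 (right) in the 6 pools (x axis), with Notch3-/- pools left of the dotted line and lines joining pools of 1 genotype to guide the eye. In Notch3-/- pool 2 the C1qb probe set 1437726_x_at is at 8.44, above its value in every other pool, whereas the brightest C1qb probe set is at 7.93.

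Of the Fc receptor and adaptor genes, 3 had changes of 0.45 to 0.54, and the inhibitory receptor gene had a change near 0. Tyrobp (DAP12), an adaptor that passes activating signals from myeloid receptors, read 7.87, 7.48 and 7.66 in the Notch3-/- pools, against 7.54, 7.15 and 6.69 in the Notch3+/+ pools. Its change was 0.54 (SE 0.21, adjusted p = 0.401 from limma), with Notch3-/- pool 2 just below Notch3+/+ pool 1. Fcgr3, an activating receptor for IgG, read 7.15, 6.82 and 6.91 in the Notch3-/- pools, against 6.78, 6.53 and 6.01 in the Notch3+/+ pools, a change of 0.52 (SE 0.19, adjusted p = 0.387 from limma) without overlap. Fcer1g, the signalling chain shared by activating Fc receptors and by the IgE receptor of mast cells, read 7.20, 6.68 and 7.03 in the Notch3-/- pools, against 6.88, 6.72 and 5.97 in the Notch3+/+ pools, a change of 0.45 (SE 0.24, adjusted p = 0.534 from limma). Fcgr2b, the inhibitory IgG receptor, read 8.59, 8.03 and 8.22 in the Notch3-/- pools, against 8.35, 8.34 and 8.19 in the Notch3+/+ pools. Its 4 tested probe sets differed by -0.01 to 0.16, with adjusted p of 0.661 or more from limma. Fcgr2b and Fcgr3 are near neighbours on chromosome 1, with 1 protein-coding gene between them.

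All 6 pan-leukocyte genes had a change above 0, from 0.14 to 0.66, with a median of 0.50. That median was 0.25 when all probe sets of a gene were averaged, 0.29 without Notch3+/+ pool 3 and 0.12 among pools of 4 mice. Ptprc, the phosphatase CD45 of all nucleated blood cells, read 6.35, 6.06 and 5.74 in the Notch3-/- pools, against 5.88, 5.63 and 4.85 in the Notch3+/+ pools, a change of 0.60 (SE 0.27, adjusted p = 0.467 from limma). Cd53, a leukocyte tetraspanin gene, read 6.79, 6.39 and 6.28 in the Notch3-/- pools, against 6.40, 6.0 and 5.16 in the Notch3+/+ pools, a change of 0.63 (SE 0.30, adjusted p = 0.481 from limma). In both genes Notch3+/+ pool 3 lay far below every other pool, and Notch3+/+ pool 1 lay within the Notch3-/- range. Lcp1, the actin-bundling protein L-plastin, read 6.78, 6.21 and 6.40 in the Notch3-/- pools, against 6.31, 6.02 and 5.84 in the Notch3+/+ pools. The change was 0.41 on this probe set (SE 0.17, adjusted p = 0.438 from limma) and 0.11 on the other. Coro1a, the leukocyte coronin, differed by 0.34 and 0.39 on its tested probe sets, and Cd52, a small surface glycoprotein of lymphocytes and myeloid cells, by 0.14. Among leukocyte integrins, the common beta chain gene Itgb2 read 5.65, 5.18 and 5.34 in the Notch3-/- pools, against 5.35, 5.12 and 4.84 in the Notch3+/+ pools, a change of 0.29 (SE 0.16, adjusted p = 0.548 from limma). The alpha chain genes Itgam (CD11b) and Itgax (CD11c), which are neighbours on chromosome 7, lay below the level filter, at 2.23 to 2.73 and 3.07 to 3.17 in the Notch3-/- pools, against 2.30 to 2.39 and 3.17 to 3.60 in the Notch3+/+ pools.

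The 3 T cell genes and the 1 neutrophil gene that were tested had changes near or below 0, and both B cell genes lay below the filter. Cd3e, a signalling chain of the T cell receptor complex, read 4.96, 4.85 and 4.99 in the Notch3-/- pools, against 5.19, 4.84 and 5.33 in the Notch3+/+ pools, a change of -0.19 (SE 0.13, adjusted p = 0.620 from limma). The co-receptor genes Cd4 and Cd8a differed by -0.07 and 0.01, and for each of these 3 T cell genes Notch3+/+ pool 3 was the highest of all pools. Cd3g, at 2.43 to 2.62 in the Notch3-/- pools and 2.51 to 2.70 in the Notch3+/+ pools, lay below the filter. Of the chains of the B cell receptor signalling unit, Cd79a read 3.53 to 3.65 in the Notch3-/- pools, against 3.78 to 3.96 in the Notch3+/+ pools. Cd79b read 3.37 to 3.95 in the Notch3-/- pools, against 3.56 to 3.75 in the Notch3+/+ pools. The neutrophil calprotectin gene S100a8 read 4.64, 4.22 and 4.17 in the Notch3-/- pools, against 4.43, 4.62 and 3.86 in the Notch3+/+ pools, a change of 0.04 (SE 0.21, adjusted p = 0.956 from limma). Its partner S100a9, adjacent to it on chromosome 3 and below the filter on average, read 4.25, 3.65 and 3.78 in the Notch3-/- pools, against 3.56, 3.81 and 3.47 in the Notch3+/+ pools. S100a9 differed by 0.28, and without the level filter the median of the neutrophil genes was 0.16. The median change was -0.03 over the 4 tested genes of these classes and 0.41 over the 28 tested macrophage, C1q, Fc receptor, integrin and pan-leukocyte genes. The difference between these medians was not tested.

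Across pools, the 28 myeloid and pan-leukocyte genes varied together within each genotype. Notch3-/- pool 1 was the highest Notch3-/- pool in 26 of the 28 genes, against 34.2% of all genes tested. Notch3+/+ pool 3 was the lowest Notch3+/+ pool in 26 of them, against 32.0% of all genes tested. The median deviation of the 28 genes from their means was 0.44, -0.04 and 0.19 in Notch3-/- pools 1 to 3, against 0.08, -0.11 and -0.63 in the Notch3+/+ pools. The medians overlapped, since Notch3+/+ pool 1 lay above Notch3-/- pool 2. Notch3+/+ pool 3 lay below the mean of Notch3+/+ pools 1 and 2 in 26 genes, by a median of 0.62 over the 28, which exceeds the median genotype change of 0.41. Notch3-/- pool 2 lay below Notch3+/+ pool 1 in 18 of the 28 genes, and Notch3-/- pool 1 lay above it in 27.

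**Figure D3:**
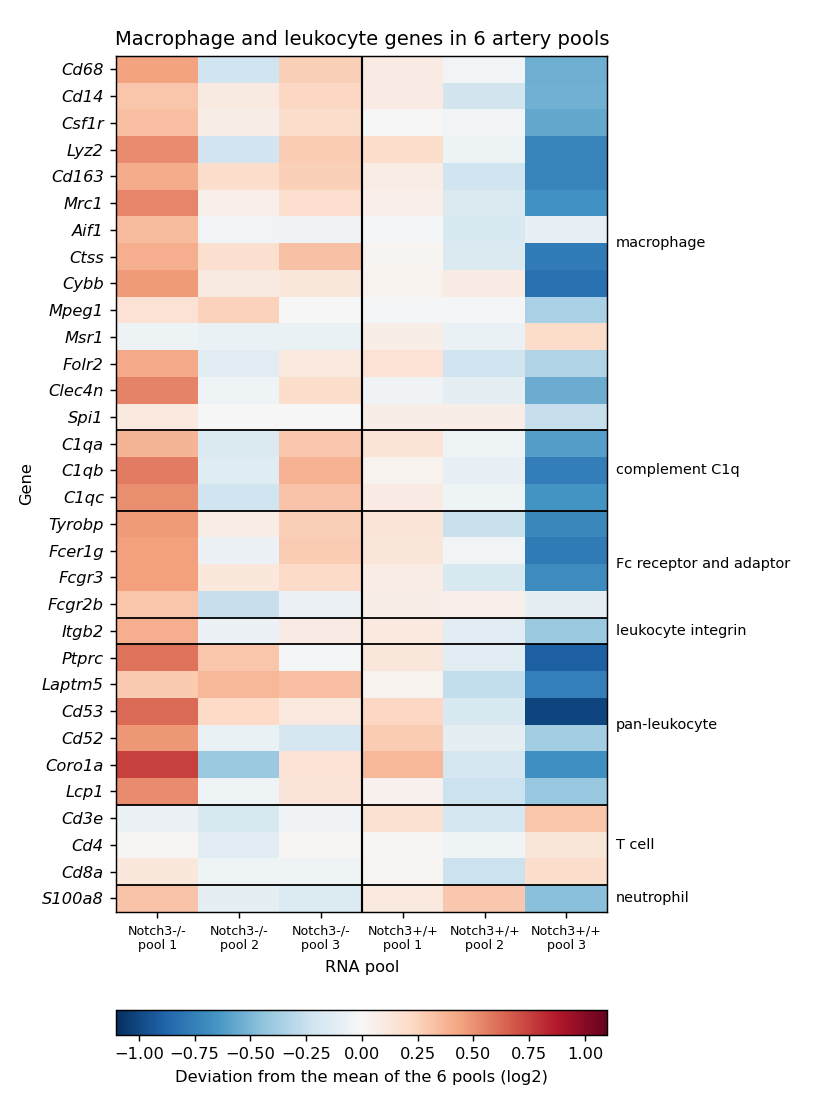
Deviation of each tested gene (rows, grouped by cell class) from its mean over the 6 pools (columns), in log2 units, red above and blue below the mean. The column of Notch3+/+ pool 3 is blue for most macrophage, C1q, Fc receptor and pan-leukocyte genes and red for the T cell genes, and the column of Notch3-/- pool 1 is red for most genes.

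The size of the genotype difference therefore depended on which pools were compared. Without Notch3-/- pool 1 the median change over the 32 genes was 0.25, with 25 above 0 and 1 higher at an unadjusted p under 0.05 in limma (background 7.91%). Without Notch3-/- pool 2 it was 0.52, with 29 above 0 and 13 at that p (background 5.76%). Without Notch3+/+ pool 3 it was 0.17, with 25 above 0 and 3 at that p (background 4.23%). In that setting the median was 0.18 for the macrophage class, 0.18 for C1q and 0.24 for the Fc receptor class. Without both Notch3-/- pool 2, apart on the principal component, and Notch3+/+ pool 3, lowest for these genes, it was 0.30, with 28 above 0 and 13 at that p (background 4.4%). Among the pools of 4 mice, the 3 Notch3-/- pools against Notch3+/+ pool 1, it was 0.10, with 21 above 0 and 1 at that p (background 2.25%), and the C1q median was 0.11. In that comparison the single Notch3+/+ pool is assumed to vary like the others. Within Notch3+/+, the pool of 4 mice was the highest in 24 of the 28 myeloid and pan-leukocyte genes, and the share over all genes was not counted. Only 1 Notch3+/+ pool held 4 mice. The pools of 3 mice differed from each other, with median deviations of -0.11 and -0.63 for these genes in Notch3+/+ pools 2 and 3. The part of the number of mice per pool in the genotype difference was not tested.

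Of 21 further macrophage genes tested, listed apart from these members, 14 had a change above 0 and 7 below 0, down to -0.40. In limma 9 of the 21 had an unadjusted p under 0.05 upward (background 7.1%), 2 downward (background 4.81%), and 0 passed over all probe sets. The median over the 21 genes was 0.20. Their median was 0.07 without Notch3+/+ pool 3, with 12 above 0, and 0.0033 among pools of 4 mice, with 11 above 0. Ms4a6d, a membrane protein gene of macrophages, read 5.42, 5.18 and 5.01 in the Notch3-/- pools, against 4.67, 4.67 and 4.25 in the Notch3+/+ pools, a change of 0.67 (adjusted p = 0.192 from limma). Lyve1, a hyaluronan receptor of lymphatic endothelium and of resident macrophages of the arterial wall, read 7.63, 7.46 and 7.81 in the Notch3-/- pools, against 7.19, 7.02 and 6.41 in the Notch3+/+ pools, a change of 0.76 (adjusted p = 0.247 from limma). Neither gene overlapped between genotypes. Over the 21 genes, 7 did not overlap with Notch3-/- higher (background 9.46%) and 1 with Notch3-/- lower (background 7.88%). Of 16 further leukocyte signalling genes, 14 had a change above 0, with a median of 0.14. Among them 1, the cytoskeletal gene Plek (0.38), had an unadjusted p under 0.05 in limma (background 7.1%). Of 9 complement genes other than C1q, 8 had a change above 0, with a median of 0.14. In limma 2 of them were higher at an unadjusted p under 0.05 (background 7.1%) and 0 were called. Cd55, which encodes decay-accelerating factor and protects cells from complement, read 6.85, 7.04 and 6.99 in the Notch3-/- pools, against 6.55, 5.80 and 5.58 in the Notch3+/+ pools, a change of 0.98 (adjusted p = 0.204 from limma). The anaphylatoxin receptor gene C3ar1 differed by 0.65 (adjusted p = 0.40 from limma).

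Lists for the other leukocytes held few genes above the filter. Only 3 of 14 further T and NK cell genes with a probe set were tested, with a median of -0.11, as were 4 of 8 B cell genes (-0.05), 1 of 9 neutrophil genes (Camp, -0.02) and 3 of 5 dendritic cell genes (0.03). In limma 0 of these 11 genes had an unadjusted p under 0.05. The erythroid genes, a sign of carried-over blood, left 1 gene above the filter, Alas2, at 7.74, 6.52 and 7.12 in the Notch3-/- pools, against 6.25, 7.17 and 6.66 in the Notch3+/+ pools.

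Markers of other cells of the artery also varied between pools. All 8 mast cell genes had a change above 0, with a median of 0.72. In limma 4 of the 8 were higher at an unadjusted p under 0.05 (background 7.1%). The median of the 8 genes was 0.49 without Notch3+/+ pool 3 and 0.11 among pools of 4 mice. Their median deviations were 0.65, 0.10 and 0.34 in the Notch3-/- pools, against 0.23, -0.48 and -0.85 in the Notch3+/+ pools, so Notch3+/+ pool 3 was lowest here too. Their summed signal (antilog scale) was 1518 to 2560 in the Notch3-/- pools, against 878 to 1860 in the Notch3+/+ pools. The summed signal of the 28 myeloid and pan-leukocyte members was 4366 to 5861 in the Notch3-/- pools, against 2901 to 4634 in the Notch3+/+ pools. Of 10 adventitial fibroblast genes, 9 had a change above 0, with a median of 0.14, with summed signals of 37320 to 40100 in the Notch3-/- pools and 35550 to 37630 in the Notch3+/+ pools. Notch3-/- pool 3 was the highest pool in 6 of the fibroblast genes and Notch3-/- pool 1 in 3, while Notch3+/+ pool 3 was lowest in 6. In limma 4 of the 10 fibroblast genes were higher at an unadjusted p under 0.05 (background 7.1%). Of the 10, 5 did not overlap with Notch3-/- higher (background 9.46%). Dpt, the matrix protein dermatopontin, was the 1 gene of that list called (0.58, adjusted p = 0.0499 from limma).

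In contrast, all 7 endothelial genes had a change below 0, with a median of -0.27, and Notch3+/+ pool 3 was the highest of all pools in 5 of them. Their summed signal was 3250 to 3951 in the Notch3-/- pools, against 4036 to 4624 in the Notch3+/+ pools. The 5 smooth muscle genes had a median change of 0.04 and summed signals of 24640 to 25000 in the Notch3-/- pools and 22760 to 26100 in the Notch3+/+ pools. The 7 skeletal muscle genes had a median of -0.21 and ran from 596 to 1346 in the Notch3-/- pools, against 934 to 1139 in the Notch3+/+ pools. Notch3-/- pool 2 was the lowest pool in all 7 skeletal muscle genes. Without that pool their median was 0.03, with 4 above 0. In these 3 lists 0 genes passed in limma. At an unadjusted p under 0.05 in limma, 3 endothelial and 2 skeletal muscle genes were lower (background 4.81%). Of the smooth muscle genes, 1 was higher at that p (Cnn1, 0.51, background 7.1%) and 1 lower (Smtn, -0.58). The part of tissue composition in the difference of the macrophage genes was not tested.

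**Figure D4:**
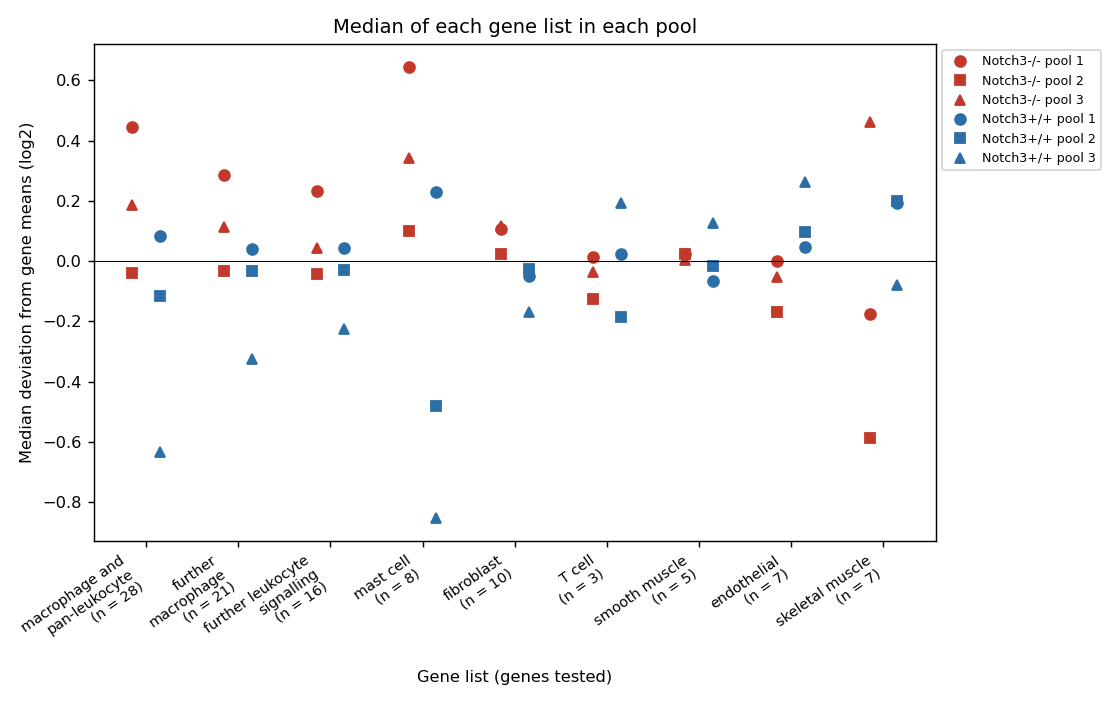
Median deviation (y axis, log2 units) of each gene list (x axis, with the number of genes tested) in each pool, Notch3-/- pools in red and Notch3+/+ pools in blue. Notch3+/+ pool 3 is the lowest point for the macrophage and pan-leukocyte genes (-0.63) and for the mast cell genes (-0.85), and the highest for the T cell (0.19) and endothelial genes (0.26).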

How the data were processed

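Total RNA of caudal arteries from 3 Notch3-/- and 3 Notch3+/+ pools was hybridised to Affymetrix MOE430 2.0 arrays, per the labels. The deposited values are on a log2 scale and come from RMA, per the submitters' processing notes, which give neither its version nor the chip definition in the sources used here. The scale was read from the values (1.38 to 13.38). No scanner files, detection calls or batches were used here. The file held 45101 probe sets, of which 64 controls were left out. The platform annotation gave 34945 of the rest 1 symbol, 932 several and 9160 none.

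Probe sets with a mean below the 40th percentile were left out, which left 27027. They were fitted with limma 3.58.1 in R 4.3.3 (lmFit, eBayes) with genotype as the only term, and its two-sided p was adjusted over all of them (Benjamini-Hochberg). The fit was tested on simulated data. The member genes, their classes and the other lists were chosen with earlier results of these data known, so lists are described by counts and medians without a test. Named members are the C1q chains, those with a probe set at an unadjusted p under 0.05, the brightest and the extreme members of each class and those whose probe sets differ in sign. Other members were named after their values were seen, to complete their class. The 2 Coro1a probe sets tied in mean, and the first by name was taken. From each other list at most 3 genes, those with the smallest unadjusted p, were named. The alternatives were other filters, variance models, scalings and weights, the replicate number as a block, all probe sets of a gene, and leaving out arrays. The precision is limited by 3 arrays per genotype.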

Additional observations from a re-analysis of the deposited data

How the results depend on the processing

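The number of probe sets called was 68 and ranged from 54 to 86 under the other filters, variance models and scalings, the weights by mice and the replicate block. It was 978 with array weights, 13 to 62 when 1 array was left out, 0 among pools of 4 mice (1065 at an unadjusted p under 0.05) and 2 without Notch3-/- pool 2 and Notch3+/+ pool 3. Both of these last settings were chosen after seeing the data. Member probe sets called in limma numbered 1. They numbered 4 with array weights (2 of C1qb and 1 each of Laptm5 and Clec4n), which gave Notch3-/- pool 3 and Notch3+/+ pool 2 weights of 3.04 and 2.94 and Notch3-/- pool 2 one of 0.290, and 0 to 1 when 1 array was left out (4 to 21 at an unadjusted p under 0.05). With the replicate block they numbered 0 (21 at an unadjusted p under 0.05), with an adjusted p of 0.0508 for the C1qb probe set. They numbered 0 among pools of 4 mice and 0 without Notch3-/- pool 2 and Notch3+/+ pool 3 (2 and 18 at an unadjusted p under 0.05). With 1 array left out, the lowest member count at that p was 4 of 48, without Notch3-/- pool 1. In that setting 3719 of all 27027 probe sets tested reached that p. The highest, 21 of 48, was without Notch3+/+ pool 1, where 3078 of all probe sets did. The number over all probe sets was 3190 with the replicate block and 2016 without Notch3-/- pool 2 and Notch3+/+ pool 3. The block used the pool numbers of the sample titles, which differ from those in the descriptions. Deviations of pools with the same title number correlated at 0.24, 0.05 and -0.07, against -0.17 to 0.14 for pools with different numbers. The value for the pools numbered 1 was thus the highest. Since titles and descriptions number the pools differently, the numbers were not taken to pair the samples.

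The median change over the members stayed above 0 in every setting run, from 0.10 among pools of 4 mice to 0.54 without Notch3+/+ pool 1. Without 1 array it ran from 0.17 to 0.54, and as the mean over all probe sets of a gene it was 0.30. Among pools of 4 mice, the Fc receptor median was 0.11 and the pan-leukocyte median 0.12. The integrin median was 0.01 with the 20th percentile filter, which admits Itgax. Among the members named by the rule above, Fcgr2b, Cd52, Cd4, Cd8a and S100a8, none of which was called, changed sign in at least 1 setting. Of the other members, Spi1, Coro1a, Folr2 and Lyz2 also fell below 0 among pools of 4 mice. Spi1 had a Notch3-/- mean of 5.16 there, against 5.20 in Notch3+/+ pool 1. No detection calls were used, so whether the dim lymphocyte and neutrophil probe sets lie above background was not tested.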
